A study of Homo sapiens with 24 samples.

Results

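The transcripts described here encode enzymes that handle ubiquitin through a catalytic cysteine, in 3 classes: E1 activating enzymes, E2 conjugating enzymes and the ubiquitin-specific proteases (USPs), the largest family of deubiquitinases. Members were taken by gene symbol: UBA with a single number up to 7, UBE2 with a letter, or USP with a number only, annotated as protein-coding and lying on an autosome. Of 60232 gene identifiers in the count table, 87 met these conditions, 5 E1, 36 E2 and 46 USP genes. A further 60 genes with such symbols were left out because they are not annotated as protein-coding, and 5 because they lie on the X chromosome, among them UBA1, the main ubiquitin E1.

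Ubiquitin is activated by an E1, which binds it as a thioester on its active-site cysteine, passed to the cysteine of an E2, and joined to a substrate with the help of a ligase (E3). Related E1 and E2 enzymes serve the ubiquitin-like modifiers SUMO, NEDD8, ISG15, UFM1 and FAT10, and USPs cut ubiquitin from substrates with a cysteine of their own. A few members carry the family name without the cysteine chemistry: UBE2V1 and UBE2V2 lack the active-site cysteine and act as partners of UBE2N, and USP39, a splicing factor, lacks key catalytic residues.

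RNA was sequenced from 22Rv1 cells, a human line established from a prostate carcinoma, in 3 groups of 3 libraries: KB05 at 200 µM, KB02 at 200 µM, and the vehicle DMSO. Of the small molecules KB05 and KB02 the labels give the code names. Cells of the compound groups were exposed for 1 h and then kept for 2 h in fresh medium, so that all groups carry a 3 h time point. All groups are the same line with no genetic change, treatment was done in biological triplicate, and 15 samples of the series at a later time were not analysed here.

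Total counts ran from 15506975 to 21900548 per library. Levels are given as CPM, read counts scaled to a common library size with TMM factors, so a level is a share of a library's messenger RNA reads, and a change in the RNA of each cell cannot be told apart from a change in the number of cells that carry it. A count of 3 in a library, the floor used for undetected genes, was 0.129 to 0.195 CPM, for counting error only. All 9 markers of prostate luminal carcinoma cells passed the filter on low counts, with KRT8 at 1230, 932 and 1060 CPM in KB05, KB02 and DMSO cells. Of these 9, 5 were called higher and 2 lower in KB05 than in DMSO cells, with calls as defined below. Over all genes tested, 18.7% were called higher and 21.1% lower. In KB02 against DMSO cells 2 of the 9 were called higher and 5 lower, beside 22.8% and 23.3% of all genes tested. Of 12 markers of other cell types, 5 passed, none was at 0 in every library, and their summed level was 654 to 685 CPM with KB05, 357 to 386 CPM with KB02 and 929 to 986 CPM with DMSO. Most of that sum was the liver secretory gene ALB, at 598, 308 and 884 CPM. The part of these markers in the values below was not tested.

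The 3 classes are described side by side, with no test between them. In KB05 cells more USP transcripts were called lower than higher against DMSO, and more E2 transcripts were called higher than lower. In KB02 cells both classes had more members called higher than lower. With KB05, the 19.4% of tested E2 genes called higher was near the 18.7% of all genes tested, while 6.45% were called lower beside 21.1%. Leaving out 1 library gave 3 to 11 E2 genes called higher with KB05. A gene was called where the adjusted p of edgeR's quasi-likelihood test, with Benjamini-Hochberg adjustment over 18379 genes tested, was below 0.05. Of the 87 members, 78 passed the filter on low counts and were tested, 5 E1, 31 E2 and 42 USP genes.

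In KB05 against DMSO cells, 30 of the 78 tested members were called, against 39.8% of all genes tested. Of the 42 USP genes, 18 were lower and 2 higher, while 21.1% of all genes tested were called lower and 18.7% higher. Of the 31 E2 genes, 2 were lower and 6 higher, and of the 5 E1 genes 2 were lower. The median log2 fold change was -0.17 for USP, 0.14 for E2 and -0.28 for E1 genes, and 34 of 42 USP genes had a negative value. The E1 median was just above 0 without DMSO replicate 2 or KB05 replicate 3, at most 0.0094. The USP count depended on the libraries: without KB05 replicate 1, 11 USP genes were called lower, and the members called lower fell to 13, against 22 with all libraries. The 8 members called higher became 13 without DMSO replicate 1, and 4 without DMSO replicate 2 or KB05 replicate 2.

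In KB02 against DMSO cells, 33 of the 78 tested members were called, against 46.1% of all genes tested. Of the USP genes 14 were higher and 4 lower, of the E2 genes 9 higher and 3 lower, and of the E1 genes 2 higher and 1 lower, while 22.8% of all genes tested were called higher and 23.3% lower. The medians were 0.07 for USP, 0.06 for E2 and 0.06 for E1 genes on the log2 scale. Leaving out 1 library gave 0.0636 to 0.1171 for USP, 0.0344 to 0.1156 for E2 and 0.0555 to 0.3128 for E1 genes, and library sizes alone gave 0.20, 0.19 and 0.19 for the classes in that order. The highest values came without KB02 replicate 1 for USP and E2 genes and without DMSO replicate 2 for E1 genes. The 8 members called lower numbered 5 without DMSO replicate 1 or KB02 replicate 2, 4 without KB02 replicate 1 and 3 without DMSO replicate 2. With library sizes alone in place of TMM factors, the median of all genes tested moved to 0.13 and 36 members were called higher and 2 lower, while the share of calls that were higher, over all genes, was 63.8% in place of 49.5%.

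In the direct comparison of KB05 with KB02 cells, 29 of the 78 tested members were called, against 40% of all genes tested. Of the USP genes 17 were lower and 1 higher, of the E2 genes 6 lower and 3 higher, and 2 E1 genes were lower, while 18.2% of all genes tested were called lower and 21.8% higher. The USP median was -0.20 and 38 of 42 USP genes had a negative value, beside an E1 median of -0.24, an E2 median of 0.06 and a median of 0.06 over all genes tested. The E2 median turned to -0.05 with library sizes alone and was near 0 without KB02 replicate 1. With library sizes alone, 38 members were called lower, the share of calls that were higher over all genes was 37.4% in place of 54.4%, and the median of all genes was -0.06. The 4 members called higher fell to 1 without DMSO replicate 2 or KB02 replicate 1. The comparisons with DMSO share the 3 DMSO libraries.

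Counts of genes whose libraries did not overlap between groups gave a like picture in direction, but differed for E2 genes with KB05. Of the 31 tested E2 genes, 11 (35.5%) lay wholly higher with KB05 than with DMSO and 3 wholly lower. Called higher were 6 (19.4%). For KB05 against DMSO, 23 of the 78 tested members lay wholly lower and 13 wholly higher, beside 25.4% and 23.7% of all genes tested, and of the USP genes 18 lay lower and 2 higher. For KB02 against DMSO, 28 members lay wholly higher and 10 wholly lower, beside 26.9% and 26.6% of all genes tested. For KB05 against KB02, 34 members lay wholly lower and 8 wholly higher, beside 22.7% and 27.6% of all genes tested, and 24 of the 34 were USP genes.

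The changes were small in size. Each tested member lay within 2-fold between KB02 and DMSO cells. Between KB05 and DMSO cells 77 of 78 did, the exception being USP2. Between KB05 and KB02 cells 75 of 78 did, the exceptions being USP34, USP24 and USP20, each lower with KB05. Over all genes tested, 4.97% were called higher and 2.7% lower at 2-fold or more in KB05 against DMSO cells, 6.04% higher and 6.28% lower in KB02 against DMSO cells, and 4.11% higher and 5.23% lower in KB05 against KB02 cells.

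**Figure D1:**
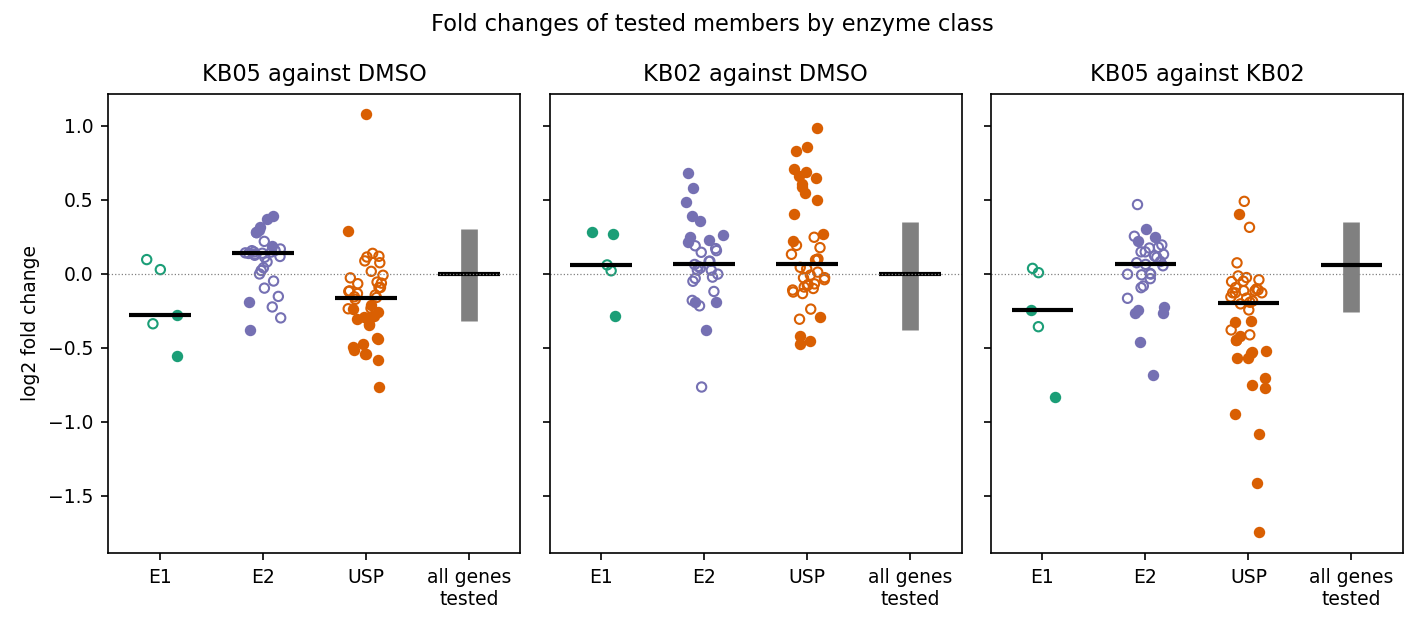
Log2 fold changes of the 78 tested members by class, 1 panel per comparison, with a point per gene (filled where the adjusted p was below 0.05, open elsewhere), black lines for medians and a grey bar for the interquartile range of all 18379 genes tested. USP points lie mostly below 0 in KB05 against DMSO, with a median of -0.17, and in KB05 against KB02, with a median of -0.20.

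Levels per kilobase of annotated exon allow members to be set side by side. In DMSO cells the median was 11.6 CPM per kb for tested E2 genes, 6.34 for E1 genes and 3.12 for USP genes. UBE2S, which extends lysine-11 chains with the anaphase-promoting complex, was the highest E2 gene at 216 CPM per kb, followed by the NEDD8 conjugating enzyme UBE2M at 99.4. UBE2T of the Fanconi anaemia pathway, at 77.5, and UBE2C of the anaphase-promoting complex, at 77.4, stood next. USP5, which disassembles free ubiquitin chains, was the highest USP gene at 74.1 CPM per kb, above USP22 of the SAGA histone-modifying complex at 24.8. The lowest tested members were UBA7, the E1 of ISG15, at 0.113, USP6 at 0.116 and USP2 at 0.392 CPM per kb, and the lowest E2 gene was UBE2L6, the E2 of ISG15, at 0.774.

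Among the E1 enzymes, UBA6 moved in opposite directions with the compounds. UBA6, which activates both ubiquitin and FAT10, had 19.6, 18.9 and 18.4 CPM in the KB05 libraries, 35.3, 32 and 34.4 CPM in the KB02 libraries and 26.8, 28.9 and 28.1 CPM in the DMSO libraries. All KB05 libraries lay below and all KB02 libraries above the DMSO libraries. The gene changed by -0.56 ± 0.09 (SE) on the log2 scale with KB05 (adjusted p = 7.99e-06) and by 0.28 ± 0.08 with KB02 (adjusted p = 0.00692), both against DMSO in edgeR's quasi-likelihood test. Between KB05 and KB02 cells it was 1.78-fold lower with KB05 (adjusted p = 3.62e-09). UBE2Z, an E2 loaded by UBA6 and not by UBA1, was not called in any comparison, with a 95% interval of -0.31 to 0.01 for KB05 and -0.28 to 0.04 for KB02 against DMSO.

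UBA3, the catalytic subunit of the NEDD8 E1, was lower with both compounds to a like extent. It had 26.7, 25.9 and 24.1 CPM in the KB05 libraries, 25.9, 26.3 and 24.3 CPM in the KB02 libraries and 32.9, 31.1 and 29.1 CPM in the DMSO libraries. All 6 compound libraries lay below the 3 DMSO libraries, and the compound groups overlapped. Its change was -0.28 ± 0.09 with KB05 and -0.28 ± 0.09 with KB02, and the 95% interval of the difference between compounds was -0.17 to 0.19. The call was lost without KB05 replicate 3 for KB05 (adjusted p = 0.0683, over a range of 0.00783 to 0.0683 among alternatives). For KB02 it was lost without DMSO replicate 2 (adjusted p = 0.0603) and with library sizes alone (adjusted p = 0.182, range 0.00544 to 0.182). NAE1, the other subunit of that E1, was not called, with -0.07 for KB05 and -0.02 for KB02.

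UBA2, the catalytic subunit of the SUMO E1, had 76.4, 80.1 and 80.9 CPM in the KB05 libraries, 101, 97.3 and 82.9 CPM in the KB02 libraries and 80.8, 77.1 and 75 CPM in the DMSO libraries. Its KB02 libraries lay above all others. It rose by 0.27 ± 0.07 with KB02 (adjusted p = 0.00313), the interval for KB05 against DMSO was -0.13 to 0.18, and KB05 against KB02 was -0.24 ± 0.07 (adjusted p = 0.00915). UBA7 had 0.403 ± 0.251 CPM with KB05, 0.517 ± 0.0782 CPM with KB02 and 0.512 ± 0.231 CPM with DMSO, and its interval for KB05 against DMSO, -1.51 to 0.83, is too wide to place it.

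Among the E2 enzymes, the largest rises came with KB02. UBE2D1, of the UBE2D family of conjugating enzymes that work with many ligases, had 7.82, 9.56 and 7.76 CPM in the KB05 libraries, 14.1, 13.8 and 12.2 CPM in the KB02 libraries and 9.1, 7.49 and 8.51 CPM in the DMSO libraries. The KB02 libraries stood above the other 6, whose ranges overlapped. UBE2D1 rose by 0.68 ± 0.13 on the log2 scale with KB02, 1.61-fold (adjusted p = 5.79e-05), and was -0.68 ± 0.13 in KB05 against KB02 cells (adjusted p = 8.03e-05). Its interval for KB05 against DMSO was -0.28 to 0.28.

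Of the 4 UBE2D paralogs, UBE2D1 and UBE2D3 were called higher and UBE2D2 lower with KB02. UBE2D3, the most abundant of them, had 154 ± 4.6 CPM in KB05, 183 ± 11.8 CPM in KB02 and 140 ± 3.11 CPM in DMSO cells (SD, n = 3) and rose by 0.39 ± 0.07 with KB02 (adjusted p = 1.77e-05). UBE2D2 had 64.7 ± 5.21 CPM, 52.5 ± 1.56 CPM and 59.9 ± 4.18 CPM in KB05, KB02 and DMSO cells, and was called lower with KB02, at -0.19 ± 0.08 (adjusted p = 0.0412). That call was lost in 11 of 17 alternatives, with adjusted p from 0.0361 to 0.572 and lost without any 1 of the KB02 or DMSO libraries. UBE2D2 was higher in KB05 than in KB02 cells by 0.30 ± 0.08 (adjusted p = 0.00199), a call lost with library sizes alone (adjusted p from 0.000679 to 0.0642 over alternatives). UBE2D4 was not called after adjustment (adjusted p = 0.0633 for KB05 and 0.0618 for KB02), though its intervals, which are not adjusted for the number of genes, ran from -0.42 to -0.03 for KB05 and from -0.41 to -0.02 for KB02.

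UBE2B, also called RAD6B, which monoubiquitinates histone H2B and PCNA, rose with both compounds. It had 31.5, 36.4 and 31 CPM in the KB05 libraries, 38.8, 41.8 and 37.8 CPM in the KB02 libraries and 32, 25.1 and 22 CPM in the DMSO libraries. The KB02 libraries did not overlap the others, while DMSO replicate 1 lay within the range of the KB05 libraries. UBE2B rose by 0.32 ± 0.11 with KB05 (adjusted p = 0.0216) and by 0.58 ± 0.11 with KB02 (adjusted p = 7.13e-05). The KB05 call was lost without DMSO replicate 2, DMSO replicate 3 or KB05 replicate 2 and with DESeq2 (adjusted p from 0.000322 to 0.134 over 17 alternatives).

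UBE2G1 had 24, 27.6 and 27.7 CPM in the KB05 libraries, 38.7, 40.1 and 30.1 CPM in the KB02 libraries and 30.1, 23.6 and 24.3 CPM in the DMSO libraries and rose by 0.48 ± 0.11 with KB02 (adjusted p = 0.000738). KB02 replicate 3 equalled DMSO replicate 1 at the printed precision and stood just above it unrounded. KB05 against KB02 was -0.46 ± 0.11 (adjusted p = 0.00148), and KB05 against DMSO had an interval of -0.21 to 0.25. UBE2J2, an E2 anchored in the endoplasmic reticulum membrane, rose by 0.19 ± 0.07 with KB05 and 0.36 ± 0.07 with KB02. The KB05 call (adjusted p = 0.0273) was lost in 4 of 17 alternatives, among them without DMSO replicate 1, DMSO replicate 2 or KB05 replicate 2, with adjusted p from 0.0137 to 0.152.

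The other 4 E2 genes called higher with KB02 changed by less. Among them were UBE2S at 0.26, UBE2N, which builds lysine-63 chains, at 0.23, and UBE2V2 at 0.22. UBE2S was the most abundant of those named, with 619 ± 37.8 CPM in KB05, 723 ± 16.3 CPM in KB02 and 602 ± 38.9 CPM in DMSO cells. KB05 against KB02 was -0.22 on the log2 scale for UBE2S (adjusted p = 0.0106).

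With KB05, the largest E2 rises were those of the cysteine-less partners of UBE2N. UBE2V2 had 78.1, 82.4 and 80.5 CPM in the KB05 libraries, 73.3, 73.9 and 66.3 CPM in the KB02 libraries and 65.4, 55.6 and 62.9 CPM in the DMSO libraries. Its 3 groups did not overlap, with KB05 highest and DMSO lowest. UBE2V2 rose by 0.39 ± 0.07 with KB05 (adjusted p = 9.93e-05) and by 0.22 ± 0.07 with KB02 (adjusted p = 0.0176, lost without DMSO replicate 2 at 0.0607, range 0.000349 to 0.0607). UBE2V1 had 55.8, 57.3 and 62.1 CPM in the KB05 libraries, 50.8, 54.5 and 49.4 CPM in the KB02 libraries and 50.2, 42 and 43.5 CPM in the DMSO libraries and rose by 0.37 ± 0.08 with KB05 (adjusted p = 0.000482). For KB02, UBE2V1 was at 0.19 ± 0.08 (adjusted p = 0.0548). Of its 31-base stretches, 41.1% occur in other genes, mostly the read-through locus TMEM189-UBE2V1, so its share of reads is an estimate.

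UBE2H, the E2 of the CTLH ligase, had 79.9, 79.1 and 75 CPM in the KB05 libraries, 69.9, 69.9 and 71.5 CPM in the KB02 libraries and 67.5, 64 and 59.5 CPM in the DMSO libraries and rose by 0.29 ± 0.07 with KB05 (adjusted p = 0.00135). KB05 libraries lay above all others, and KB02 libraries above the DMSO libraries. The KB02 value of 0.14 ± 0.07 was not called (adjusted p = 0.0966), but was called in 3 of 17 alternatives (adjusted p from 0.00295 to 0.365). UBE2F, a NEDD8 E2 for cullin 5, was called higher with KB05 by 0.28 ± 0.10 (adjusted p = 0.0228), a call lost in 5 of 17 alternatives with adjusted p from 0.011 to 0.0969, among them without DMSO replicate 2 or 3 and without KB05 replicate 1 or 2. Its call of 0.25 ± 0.10 in KB05 against KB02 (adjusted p = 0.046) was lost in 11 of 17, among them without DMSO replicate 2, KB02 replicate 1 or 3, or KB05 replicate 1 or 2 (adjusted p from 0.0355 to 0.52). UBE2M, the other NEDD8 E2, had intervals of -0.04 to 0.28 for KB05 and -0.16 to 0.16 for KB02. UBE2R2, which serves SCF ligases with its paralog CDC34, was 0.22 ± 0.07 in KB05 against KB02 (adjusted p = 0.0132). That call was lost without DMSO replicate 2 or KB02 replicate 1 and with library sizes alone, at 0.10 (adjusted p from 0.00783 to 0.286).

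UBE2Q2 and UBE2G2, an E2 of endoplasmic reticulum-associated degradation, were called lower with each compound. UBE2Q2 had 10.1, 10.2 and 9.43 CPM in the KB05 libraries, 10.2, 12.2 and 7.26 CPM in the KB02 libraries and 12.2, 13.7 and 12.8 CPM in the DMSO libraries, a change of -0.38 ± 0.14 with KB05 and -0.38 ± 0.14 with KB02. All compound libraries lay at or below the lowest DMSO library. UBE2G2 changed by -0.19 ± 0.07 and -0.19 ± 0.07 with KB05 and KB02. These 4 calls were lost in 6 to 8 of 17 alternatives each. With KB05 that was so without any 1 of the KB05 libraries for both genes, without DMSO replicate 2 or 3 for UBE2Q2 (adjusted p from 0.0122 to 0.121) and without DMSO replicate 1 or 3 for UBE2G2 (from 0.0223 to 0.124). With KB02 it was so without DMSO replicate 2 or KB02 replicate 1 or 3 for UBE2Q2 (from 0.00683 to 0.216), and without DMSO replicate 1 or 2 or KB02 replicate 1 or 2 for UBE2G2 (from 0.0161 to 0.545). UBE2O, a large hybrid E2 and ligase, was lower in KB05 than in KB02 cells, at -0.27 ± 0.08 (adjusted p = 0.00606), with neither comparison to DMSO called.

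**Figure D2:**
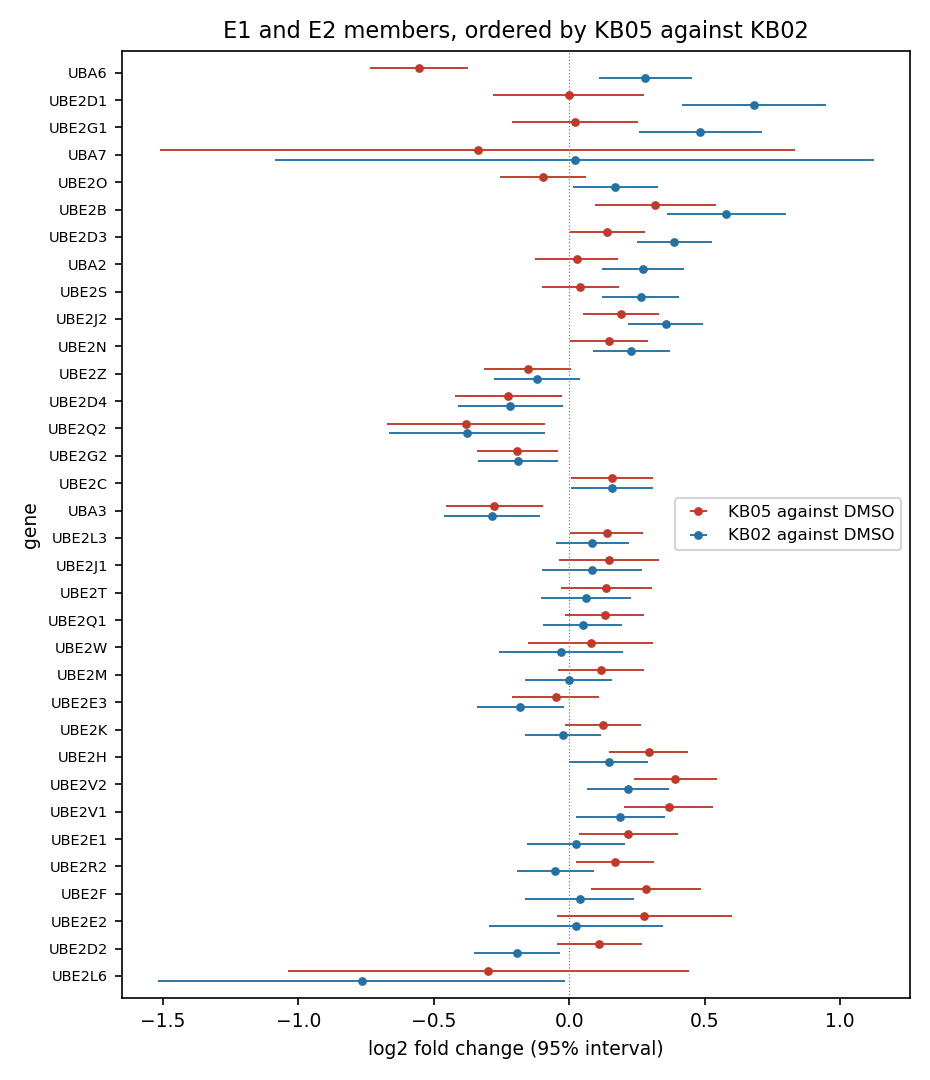
Log2 fold changes against DMSO of 34 tested E1 and E2 genes with 95% intervals, KB05 in red above KB02 in blue, ordered from lowest to highest KB05 against KB02. UBA6 stands at the top with KB05 at -0.56 and KB02 at 0.28, UBE2D1 follows with KB02 at 0.68, and most other intervals of the 2 compounds overlap.

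Among the USP genes, 4 were called lower with KB05 and higher with KB02 against the same DMSO libraries: USP34, USP24, USP20 and USP49. Promoter stretches from RefSeq (assembly GRCh38.p14) are shown for USP34 and USP20, for UBA6, which moved in the same way, and for USP2, the largest USP rise with KB05. Each stretch lies within the 250 bases before the transcript start and runs 5′ to 3′ on the strand of the gene. Bases that lie in exons of protein-coding transcripts in GENCODE release 29 were left off, and capitals mark matches to the motifs named after the sequences.
UBA6: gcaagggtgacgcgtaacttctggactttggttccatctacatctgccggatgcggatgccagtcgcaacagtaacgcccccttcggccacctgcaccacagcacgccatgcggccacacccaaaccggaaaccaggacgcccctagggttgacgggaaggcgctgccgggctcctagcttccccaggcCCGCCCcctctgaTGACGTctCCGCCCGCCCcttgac
USP34: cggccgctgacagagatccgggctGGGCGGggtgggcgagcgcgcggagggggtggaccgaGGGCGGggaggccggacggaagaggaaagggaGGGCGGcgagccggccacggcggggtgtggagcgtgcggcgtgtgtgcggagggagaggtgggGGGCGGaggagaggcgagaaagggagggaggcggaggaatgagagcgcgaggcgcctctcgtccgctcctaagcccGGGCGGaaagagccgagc
USP20: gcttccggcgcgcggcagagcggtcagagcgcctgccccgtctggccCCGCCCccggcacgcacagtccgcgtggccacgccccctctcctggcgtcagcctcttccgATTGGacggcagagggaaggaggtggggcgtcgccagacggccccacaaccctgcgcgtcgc
USP2: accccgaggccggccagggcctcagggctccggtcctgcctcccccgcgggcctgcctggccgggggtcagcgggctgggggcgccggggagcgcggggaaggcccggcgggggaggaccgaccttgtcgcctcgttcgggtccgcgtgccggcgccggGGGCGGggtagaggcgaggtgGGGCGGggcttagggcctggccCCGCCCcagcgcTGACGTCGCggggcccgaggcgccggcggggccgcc

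The stretches lie at chr4:67701180-67701405, minus strand (UBA6), chr2:61471088-61471337, minus strand (USP34), chr9:129835276-129835445, plus strand (USP20) and chr11:119364209-119364458, minus strand (USP2). The RefSeq starts of USP20 and USP2 lie inside the spans of these genes in GENCODE, which have other starts. The motifs were searched on both strands: the heat shock element GAANNTTC, the AP-1 site TGANTCA, the cAMP response element core TGACGT, the antioxidant response element TGACNNNGC, the GC box GGGCGG and the CCAAT box CCAAT. UBA6 held 1 cAMP response element core and 3 GC boxes, USP34 held 5 GC boxes, and USP20 held 1 GC box and 1 CCAAT box. USP2 held 3 GC boxes and 1 cAMP response element core that overlaps its 1 antioxidant response element match. Of all 35116 RefSeq windows of 250 bases, 42.6% held a GC box, 32% a CCAAT box, 10.9% the antioxidant response element, 7.1% the cAMP response element core, 6.57% the AP-1 site and 5.78% the heat shock element. Of the 67 members with a window, 55 held a GC box, 18 a CCAAT box, 8 the antioxidant response element and 11 the cAMP response element core, and 0 held the heat shock element or the AP-1 site in these letters. Members were counted with a single window each. The shares over all windows were not limited to protein-coding genes or freed of repeated genes, so these sets are not alike. These letters are descriptions of the windows, and nothing is drawn from them about any factor.

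USP34, a very large deubiquitinase known for acting on axin in Wnt signalling (chromosome 2, 61187463 to 61470769, minus strand), had the largest difference between KB05 and KB02 of the tested members. It had 27, 25.7 and 29.4 CPM in the KB05 libraries, 102, 94.3 and 79.1 CPM in the KB02 libraries and 48.3, 46.9 and 44.3 CPM in the DMSO libraries. The 3 groups were far apart, with the highest KB05 library below the lowest DMSO library and the lowest KB02 library above the highest DMSO library. USP34 was -0.76 ± 0.09 with KB05 against DMSO (adjusted p = 4.79e-08), 0.98 ± 0.08 with KB02 against DMSO (adjusted p = 3.03e-11) and -1.75 ± 0.09 in KB05 against KB02, 3.36-fold lower (adjusted p = 6.51e-16).

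USP24, another large deubiquitinase (chromosome 1, 55066359 to 55215113, minus strand), followed the same order. It had 26.2, 22.5 and 24.6 CPM in the KB05 libraries, 67.5, 65.8 and 62 CPM in the KB02 libraries and 38.5, 36.8 and 34.8 CPM in the DMSO libraries. No group overlapped another. Its changes were -0.58 ± 0.08 with KB05 (adjusted p = 1.42e-06) and 0.83 ± 0.08 with KB02 (adjusted p = 2.84e-10), and KB05 was 2.66-fold below KB02 (adjusted p = 1.42e-14).

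USP20, which acts on the beta-2 adrenergic receptor and on HIF1A (chromosome 9, 129834698 to 129881838, plus strand), had 21.8, 22.6 and 21.8 CPM in the KB05 libraries, 43.3, 43 and 54.1 CPM in the KB02 libraries and 29.2, 35.3 and 31.7 CPM in the DMSO libraries. The groups did not overlap, and KB02 replicate 3 was the highest library. It changed by -0.54 ± 0.10 with KB05 (adjusted p = 4.16e-05) and by 0.54 ± 0.09 with KB02 (adjusted p = 1.14e-05), and was 2.12-fold lower with KB05 than with KB02.

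USP49, a histone H2B deubiquitinase (chromosome 6, 41789896 to 41895361, minus strand), had 5.73, 4.81 and 5.4 CPM in the KB05 libraries, 11.6, 10.6 and 8.65 CPM in the KB02 libraries and 7.25, 8.26 and 7.84 CPM in the DMSO libraries, at a lower level than the others. Its groups did not overlap. It changed by -0.55 ± 0.15 with KB05 (adjusted p = 0.00446), by 0.40 ± 0.14 with KB02 (adjusted p = 0.019) and by -0.95 ± 0.15 in KB05 against KB02. The KB02 call was lost without DMSO replicate 1 or KB02 replicate 1 and with DESeq2 (adjusted p from 0.00245 to 0.0764 over 17 alternatives). UBA6 (chromosome 4, 67612652 to 67701179, minus strand), USP34, USP24 and USP20 kept their calls in both comparisons with DMSO under all 17.

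**Figure D3:**
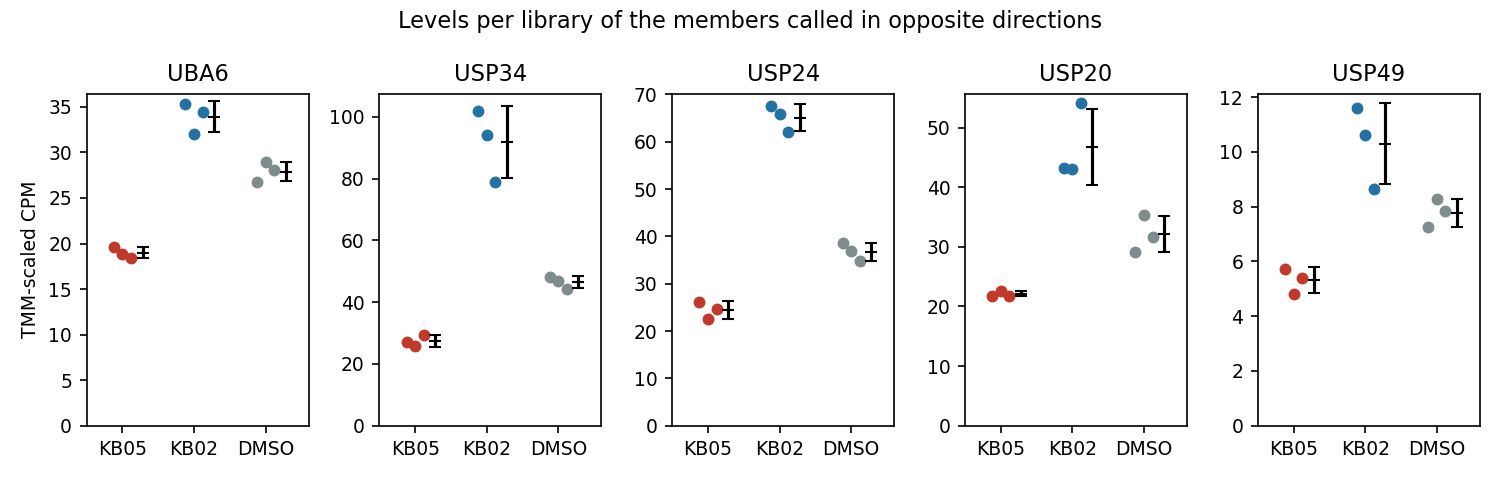
CPM per library of UBA6, USP34, USP24, USP20 and USP49 in KB05, KB02 and DMSO cells, from left to right, with points for libraries and the mean ± SD of 3 beside them. In each panel the KB05 points lie below and the KB02 points above the DMSO points, and USP34 averages 27.4 CPM with KB05, 91.9 CPM with KB02 and 46.5 CPM with DMSO.

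Other USP genes rose with KB02 and did not pass the test with KB05. USP42 had 22.3, 21.9 and 22.2 CPM in the KB05 libraries, 38.1, 35.2 and 40.3 CPM in the KB02 libraries and 24.9, 24 and 20.7 CPM in the DMSO libraries. Only its KB02 libraries stood apart, by 0.71 ± 0.09 against DMSO (adjusted p = 8.56e-08), and KB05 against KB02 was -0.77 ± 0.09 (adjusted p = 2.97e-08). USP15, which associates with the COP9 signalosome, had 33.7, 35 and 37 CPM in the KB05 libraries, 54, 53.9 and 48.5 CPM in the KB02 libraries and 33.4, 33.3 and 30.6 CPM in the DMSO libraries and rose by 0.69 ± 0.08 with KB02 (adjusted p = 1.56e-08). Its KB05 libraries lay just above the DMSO libraries, with an interval of -0.05 to 0.28.

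The remaining 6 USP genes called higher with KB02 were also not called with KB05 against DMSO. With KB02, USP25 rose by 0.66 ± 0.12, USP8, which deubiquitinates receptors on endosomes, by 0.64 ± 0.10, and USP21, a histone H2A deubiquitinase, by 0.61 ± 0.07. USP32 rose by 0.50 ± 0.10 and the nucleolar USP36 by 0.27 ± 0.08. The intervals for KB05 against DMSO were -0.11 to 0.39 for USP25, -0.27 to 0.14 for USP8, -0.30 to 0.01 for USP21, -0.24 to 0.19 for USP32 and -0.08 to 0.25 for USP36. In KB05 against KB02, 4 were called lower, USP25 at -0.53, USP8 at -0.71, USP21 at -0.75 and USP32 at -0.52, whereas USP36 was not called (adjusted p = 0.0683). USP10, which removes ubiquitin from p53, rose by 0.22 ± 0.07 with KB02 (adjusted p = 0.0136), and its direct difference between compounds had an interval of -0.26 to 0.04.

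USP38 was called higher with both compounds. It had 26.7, 27.8 and 25.2 CPM in the KB05 libraries, 41.7, 39.4 and 36.8 CPM in the KB02 libraries and 26.5, 19.1 and 19.5 CPM in the DMSO libraries. The KB02 libraries stood clear of the rest, while DMSO replicate 1 lay within the KB05 range. It rose by 0.29 ± 0.11 with KB05 (adjusted p = 0.0293) and by 0.86 ± 0.10 with KB02 (adjusted p = 4.88e-08). The KB05 call was lost without DMSO replicate 2 or 3, without KB05 replicate 1 or 2 and with DESeq2 (adjusted p from 0.000384 to 0.193).

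USP2, a deubiquitinase of cyclin D1 and of circadian clock proteins (chromosome 11, 119355215 to 119381726, minus strand), was the one tested member that changed more than 2-fold against DMSO. It was scarce, with 4.12, 3.32 and 3.74 CPM in the KB05 libraries, 2.63, 2.84 and 2.49 CPM in the KB02 libraries and 1.59, 1.55 and 2.19 CPM in the DMSO libraries. The 3 groups did not overlap, with KB05 highest. USP2 rose 2.11-fold with KB05, 1.08 ± 0.24 on the log2 scale (adjusted p = 0.00062), and this call held in all 17 alternatives. For KB02 it was 0.59 ± 0.24 (adjusted p = 0.0494), a call lost in 12 of 17 with adjusted p from 0.0144 to 0.13, among them without any 1 of the KB02 libraries, DMSO replicate 1 or 2 or any 1 of the KB05 libraries. KB05 against KB02 was not called (adjusted p = 0.0907), with an interval of 0.02 to 0.96.

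A further set of USP genes fell with KB05 and was not called with KB02 against DMSO. USP48 had 21.1, 22.1 and 24.5 CPM in the KB05 libraries, 30.5, 30.4 and 29.6 CPM in the KB02 libraries and 29.4, 32.7 and 33.1 CPM in the DMSO libraries. Its KB05 libraries lay below all others, and the KB02 and DMSO libraries overlapped. It changed by -0.49 ± 0.09 with KB05 (adjusted p = 4.71e-05) and by -0.42 ± 0.09 against KB02 (adjusted p = 0.000293). USP19, anchored in the endoplasmic reticulum membrane, had 45.6, 37.6 and 38.9 CPM in the KB05 libraries, 61.2, 56.7 and 59.3 CPM in the KB02 libraries and 56, 54.5 and 55.6 CPM in the DMSO libraries, a change of -0.44 ± 0.08 (adjusted p = 4.49e-05).

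With KB05, USP53 was at -0.47 ± 0.12 on the log2 scale, USP16, a histone H2A deubiquitinase, at -0.34 ± 0.10, USP4 at -0.28 ± 0.10 and USP40 at -0.26 ± 0.10, all called lower. The USP40 call was close to the threshold (adjusted p = 0.0493 in edgeR's test), and its KB05 and DMSO libraries overlapped. Like USP48 and USP19, all 4 were also called lower in KB05 than in KB02 cells, between -0.32 for USP4 and -0.45 for USP40. The other 5 fell with KB05 against DMSO without a called difference from KB02. USP7, which deubiquitinates MDM2 and p53, had 79.6 ± 4.57 CPM in KB05, 89.2 ± 2.75 CPM in KB02 and 97.2 ± 4.13 CPM in DMSO cells, a change of -0.29 ± 0.07 (adjusted p = 0.00134). USP22 changed by -0.24 ± 0.07 and USP14, a deubiquitinase bound to the proteasome, by -0.21 ± 0.08 (adjusted p = 0.0307 for USP14). USP12 and USP46, close paralogs that share the activator WDR48, changed by -0.29 ± 0.11 and -0.44 ± 0.17 (adjusted p = 0.0353 and 0.0408). For USP46 DMSO replicate 1 was high, with 15.4, 9.14 and 9.18 CPM in DMSO libraries. None of the calls in this paragraph was followed gene by gene under the alternatives.

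USP3, a histone H2A deubiquitinase, fell by a like amount with each compound. It had 45.3, 48.9 and 45.8 CPM in the KB05 libraries, 50.7, 47 and 46.3 CPM in the KB02 libraries and 67.5, 70 and 62.8 CPM in the DMSO libraries. All compound libraries lay below all DMSO libraries, and the compound groups overlapped. Its changes were -0.52 ± 0.08 with KB05 (adjusted p = 1.93e-06) and -0.48 ± 0.07 with KB02 (adjusted p = 3.32e-06), and the interval between compounds was -0.20 to 0.11. Of its 31-base stretches, 19.6% are shared with USP3-AS1, so reads could be split between them.

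USP54 had 73.4, 67.8 and 74.8 CPM in the KB05 libraries, 71.8, 69.9 and 63.6 CPM in the KB02 libraries and 98.2, 94.7 and 81.5 CPM in the DMSO libraries and changed by -0.35 ± 0.08 with KB05 (adjusted p = 0.000565) and -0.42 ± 0.08 with KB02 (adjusted p = 3.39e-05). USP18, which removes ISG15, changed by -0.31 ± 0.11 and -0.29 ± 0.11 with KB05 and KB02. Its KB05 call was lost in 4 of 17 alternatives, without DMSO replicate 1 or 3 or KB05 replicate 1 or 3 (adjusted p from 0.0192 to 0.122), and its KB02 call in 8, among them without any 1 of the DMSO libraries or KB02 replicate 1 or 2 (from 0.0223 to 0.258). Of its 31-base stretches, 28.8% are shared with USP41.

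USP30, which sits on the outer mitochondrial membrane and opposes mitophagy, had 17.8, 14 and 14.3 CPM in the KB05 libraries, 11.6, 12.8 and 10.4 CPM in the KB02 libraries and 19.2, 15.7 and 12.9 CPM in the DMSO libraries. The KB02 libraries lay below all others, and the KB05 and DMSO libraries overlapped. It changed by -0.46 ± 0.13 with KB02 (adjusted p = 0.00579), a call lost without DMSO replicate 1 and with library sizes alone (adjusted p from 0.000439 to 0.0726). It was the USP gene called higher in KB05 than in KB02 cells, by 0.40 ± 0.13 (adjusted p = 0.0181), a call lost in 6 of 17 alternatives, among them without DMSO replicate 2, KB02 replicate 1 or 3, or KB05 replicate 1 (adjusted p from 0.00406 to 0.148).

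**Figure D4:**
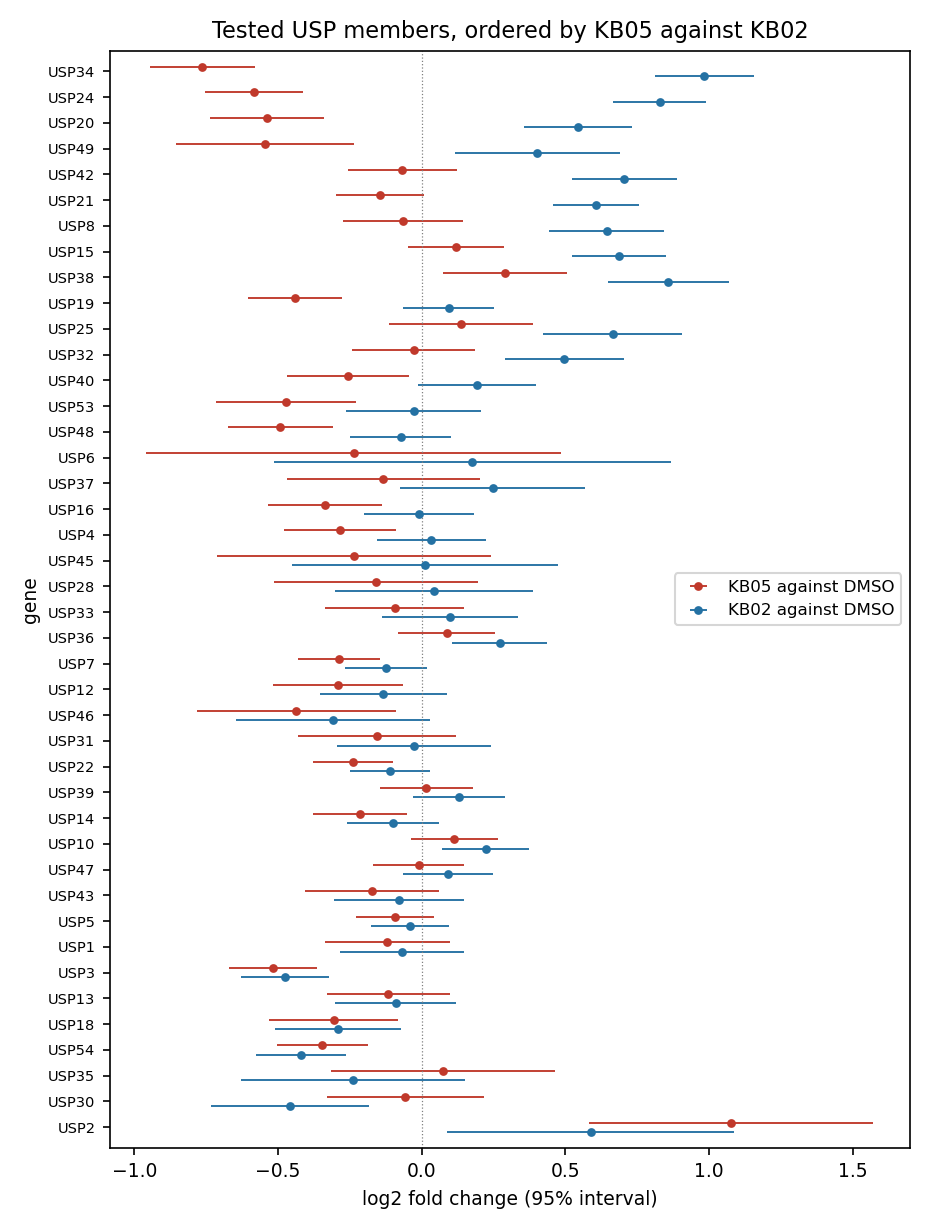
Log2 fold changes against DMSO of the 42 tested USP genes with 95% intervals, KB05 in red above KB02 in blue, ordered from lowest to highest KB05 against KB02. At the top the compounds lie on opposite sides of 0, with USP34 at -0.76 for KB05 and 0.98 for KB02, while near the bottom USP3, USP18 and USP54 lie below 0 for both, and USP2 lies above 0 for both.

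Of the tested members, 29 were not called in any of the 3 comparisons, 2 E1, 14 E2 and 13 USP genes. For abundant ones the intervals were narrow. USP5 had 259 ± 3.71 CPM in KB05, 269 ± 5.79 CPM in KB02 and 277 ± 17.2 CPM in DMSO cells, with intervals of -0.23 to 0.04 for KB05 and -0.18 to 0.10 for KB02 against DMSO. UBE2L3, an E2 for cysteine ligases of the HECT and RBR families, had intervals of 0.00 to 0.27 and -0.05 to 0.22 in that order, and UBE2C had 0.01 to 0.31 and 0.00 to 0.31. USP1, the deubiquitinase of FANCD2 and PCNA, had -0.34 to 0.10 and -0.28 to 0.15, and USP39 -0.15 to 0.18 and -0.03 to 0.29. Scarce members were poorly resolved: UBE2L6, at 1.7 ± 0.805 CPM in DMSO cells, had -1.04 to 0.44 and -1.52 to -0.01, and USP6 had -0.96 to 0.48 and -0.51 to 0.87. The others included UBE2D4, UBE2E1, UBE2E2, UBE2E3, UBE2J1, UBE2K, UBE2M, UBE2Q1, UBE2T, UBE2W and UBE2Z among E2 genes, UBA7 among E1 genes, and USP13, USP28, USP31, USP33, USP35, USP37, USP43, USP45 and USP47. Over the 14 E2 genes the log2 fold changes ran from -0.30 to 0.28 with KB05 and from -0.77 to 0.16 with KB02, and over the 13 USP genes from -0.24 to 0.07 with KB05 and from -0.24 to 0.25 with KB02.

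The remaining 9 members did not pass the filter and were not tested. UBE2U, an E2 with no read in any library, UBE2QL1 and USP41 with 1 read each and UBE2L5 with 5 reads over all 9 libraries were at or near 0. USP29 had 8 reads, all in KB05 libraries, at 0.0521, 0.325 and 0.115 CPM. USP44 had 14, the pseudogene-like UBE2Q2P16 33 and USP50 43 reads. The read-through locus UBE2F-SCLY had 58 reads, at 0, 0.065 and 0.287 CPM in KB05, 0.259, 0.811 and 0.887 CPM in KB02 and 0.212, 0.207 and 0.243 CPM in DMSO libraries, and 91.6% of its 31-base stretches occur in other genes.

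Genes that work beside the members were followed in lists, with values as log2 fold changes against DMSO. Of all genes tested, 18.7% were called higher and 21.1% lower with KB05, and 22.8% higher and 23.3% lower with KB02, and the counts of each list stand beside these shares. The polyubiquitin gene UBB had 1970, 2110 and 2520 CPM in the KB05 libraries, 1620, 1570 and 1480 CPM in the KB02 libraries and 905, 1050 and 1100 CPM in the DMSO libraries. The 3 groups did not overlap, with KB05 highest and DMSO lowest. It rose by 1.11 ± 0.09 with KB05 and 0.61 ± 0.09 with KB02, and was higher with KB05 than with KB02 by 0.50 ± 0.09 (adjusted p = 2.76e-05). RPS27A, a fusion of ubiquitin with a ribosomal protein, was at -0.11 with KB05 and -0.41 with KB02, of which that with KB02 was called.

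Of 10 tested genes of ubiquitin-like modifiers, 4 were higher with KB05, and 1 was higher and 2 lower with KB02. ISG15 was at 0.54 with KB05 and -0.01 with KB02, and SUMO2 at -0.05 and -0.31. ATG12, which works in autophagy, was called higher with each compound, at 0.28 and 0.37, the KB05 call being lost without DMSO replicate 3 (adjusted p = 0.0581, over alternatives from 0.00252). In the direct comparison ISG15 was higher with KB05 by 0.55 (adjusted p = 1e-06).

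A list of 14 genes held E1, E2 and E2-like proteins outside the naming rule or, as UBA1 and UBE2A, on the X chromosome. Of these, 4 were higher and 2 lower with KB05, beside 18.7% and 21.1% of all genes tested. With KB02 4 were higher and 3 lower, beside 22.8% and 23.3%. The E2-like proteins TSG101, UEVLD and AKTIP lack the active-site cysteine, as UBE2V1 does. Among the genes called lower with KB02 were TSG101, at -0.34, and AKTIP, at -0.44. BIRC6, a giant inhibitor of apoptosis with an E2 domain, had 20.4, 21.3 and 25.1 CPM in the KB05 libraries, 96.9, 89.1 and 83 CPM in the KB02 libraries and 28.6, 28.1 and 25.4 CPM in the DMSO libraries. Its KB02 libraries stood far above the rest, with changes of -0.30 ± 0.09 for KB05, 1.71 ± 0.09 for KB02 and -2.01 ± 0.09 for KB05 against KB02 (adjusted p = 0.00914, 2.67e-16 and 1.93e-17). The KB05 call was lost without KB05 replicate 1 (adjusted p from 0.00244 to 0.0696 over alternatives). MOCS3, which activates the ubiquitin-like URM1, rose by 0.85 ± 0.10 with KB05 and 1.42 ± 0.10 with KB02. The SCF conjugating enzyme CDC34 rose by 0.35 ± 0.08 and 0.50 ± 0.08. UBA1 fell with both, at -0.33 ± 0.07 and -0.27 ± 0.07, named here for its role after its values were seen.

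Of 7 tested USP-family genes outside the naming rule or on the X chromosome, 2 were higher and 2 lower with KB05, and 3 were higher and 1 lower with KB02. USP9X, a large deubiquitinase on the X chromosome, had 46.6, 45.6 and 56.2 CPM in the KB05 libraries, 111, 116 and 107 CPM in the KB02 libraries and 56.7, 54.3 and 54.4 CPM in the DMSO libraries, with KB02 at 1.01 ± 0.08 (adjusted p = 1.73e-12) and KB05 at -0.16 ± 0.08 (adjusted p = 0.118). The SUMO protease USPL1 was at 1.20 and 1.58 with KB05 and KB02, and PAN2, a deadenylase with an inactive USP fold, at -0.70 and -0.61.

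Of 26 other cysteine deubiquitinases, 5 were higher and 6 lower with KB05, and 9 were higher and 2 lower with KB02. The KB05 counts are near the 18.7% and 21.1% of all genes tested, and the KB02 counts stand beside 22.8% and 23.3%. VCPIP1, which works with the segregase p97, was at 0.04 with KB05, not called, and 1.08 with KB02. ZRANB1 was at 0.21, not called, and 0.80. OTUD4 was at -0.81 with KB05 and 0.24 with KB02, both called, and OTUD1 at 0.89 and 0.41, both called. The KB02 call of OTUD1 was lost in 7 of 17 alternatives, among them without DMSO replicate 2 or 3 and KB02 replicate 2 or 3 (adjusted p from 0.00364 to 0.172). Of 10 deubiquitinases of the metalloprotease type, which use zinc in place of a cysteine, 3 were higher and 1 lower with KB05 and 2 were higher and 2 lower with KB02. MYSM1, a histone H2A deubiquitinase, was called lower with KB05, at -1.05 ± 0.12, and also with KB02. Its KB02 call was lost in 9 of 17 alternatives, among them without any 1 of the KB02 libraries (adjusted p from 0.0149 to 0.31). COPS5 of the COP9 signalosome rose by 0.37 ± 0.07 with KB05 and 0.29 ± 0.07 with KB02.

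The HECT ligases, which like E2 enzymes carry ubiquitin on a cysteine, had 27 tested genes. With KB05 15 were lower and 1 higher against DMSO, a median of -0.40, and with KB02 9 were higher and 3 lower, a median of 0.15. Of all genes tested, 21.1% were lower and 18.7% higher with KB05, and 22.8% higher and 23.3% lower with KB02. Between KB05 and KB02, 15 were lower and 1 higher, a median of -0.39, beside 18.2% and 21.8% of all genes tested. HERC2 was at -0.47 with KB05 and 1.02 with KB02, HERC1 at -0.41 and 0.98, HECTD2 at -0.88 and 0.24, and HECTD4 at -0.89 and 0.07. Of these, HERC2 and HERC1 were called in both comparisons with DMSO and the other 2 with KB05 only. The RBR ligases, which also use a cysteine, had 14 tested genes, 2 higher and 4 lower with KB05 and 3 higher and 2 lower with KB02. ARIH1 was at 0.18 and 0.50, RNF216 at 0.49 and 0.48, ANKIB1 at -0.74 and -0.34, and CUL9 at -0.73 and 0.18, KB05 before KB02. RNF216 and ANKIB1 were called with each compound, ARIH1 with KB02 and CUL9 with KB05, the KB02 call of ANKIB1 being lost with library sizes alone (adjusted p from 0.000428 to 0.0588 over alternatives).

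The difference between compounds was set beside gene length. The median annotated exonic length was 7.76 kb for tested USP genes, 4.24 kb for E2 genes and 4.33 kb for all genes tested with a length. Across genes, Spearman's rho of the KB05 against KB02 log2 fold change with that length was -0.51 over the 78 tested members and -0.20 over 18075 genes. Within classes it was -0.46 over the 42 USP genes and -0.23 over the 31 E2 genes, so the value over all tested members also holds the difference in length between classes. With the span of the gene in place of exonic length, rho was -0.17 over the tested members, -0.25 over USP genes, 0.34 over E2 genes and -0.15 over all genes. The genes of a correlation share the same libraries and are not independent replicates. Over all genes, the median change ran from 0.17 in genes up to 2 kb to -0.18 in genes over 12 kb.

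Within bands of length, USP medians lay below those of all genes. From 8 to 12 kb the USP median was -0.38 (13 genes) and that of all genes -0.08, and from 6 to 8 kb it was -0.32 (9 genes) and -0.01. From 4 to 6 kb it was -0.11 (12 genes) and 0.05, and the 4 USP genes over 12 kb, USP34, USP8, USP15 and USP31, had -0.64. E2 medians were -0.09 (3 genes) from 8 to 12 kb and 0.07 (10 genes) from 4 to 6 kb. The part of length in the values of the classes was not tested.

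**Figure D5:**
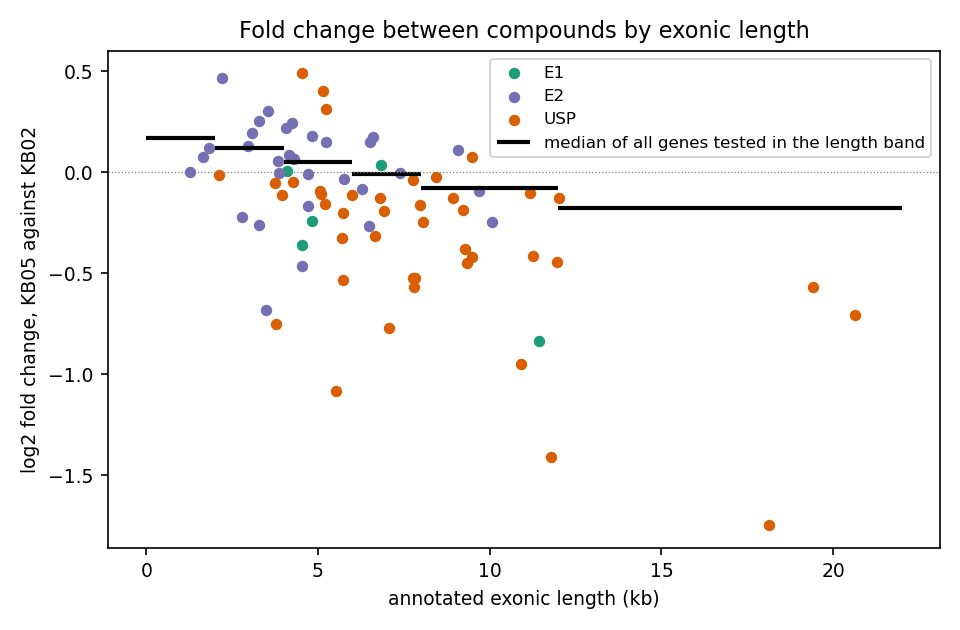
Log2 fold change of KB05 against KB02 by annotated exonic length in kb for the 78 tested members, coloured by class, with black lines for the medians of all genes tested in each length band, the last from 12 kb on. USP34 lies lowest, at -1.75, and most USP points beyond 6 kb lie below the line of their band.

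Sequence shared with other genes limits some members. Over 20% of the 31-base stretches of 9 tested members occur in another gene. Among them were UBE2N (43.6%), UBE2V1 (41.1%), USP37 (32.9%), USP18 (30.8%), USP6 (26.3%), USP32 (25.2%), USP31 (23.0%) and USP3 (22.2%). For USP2 16.1% are shared with 1 overlapping gene and for USP34 17.5%, nearly all with AHSA2P, while UBA6 shares 1.0% and USP20 0.6%. The labels do not say whether the libraries kept strand, so reads of a member and of an antisense gene over it may not be separable.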

How the data were processed

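Messenger RNA levels were measured by sequencing of total RNA, with libraries made with an NEBNext Ultra II RNA kit, per the labels. The authors deposited estimated counts per gene, not scaled to depth; 20.3 to 24.3% of the values in a library were not whole, and they were rounded to whole numbers here. The submitters' processing notes name Salmon 1.3.0, DESeq2 1.30.1 and the builds hg38 and GRCh38.p13, while annotation release and gene summing are not stated there. Library titles give a 3 h time point. The column names give 2 h without saying of what, and this was taken here as the recovery time.

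The 9 libraries were fitted together in R 4.3.3 with edgeR 4.0.16, using genes kept by filterByExpr (minimum count 10), TMM factors and the robust quasi-likelihood test. P-values were adjusted by Benjamini-Hochberg over all 18379 genes tested, with a threshold of 0.05, and intervals are 95% intervals of the log2 fold change. Scripts were tested on simulated counts. Alternatives used edgeR with other scaling, no filter or only the groups compared, a replicate block, limma-voom 3.58.1, DESeq2 1.42.0 and leaving out each library. Counts of the libraries of a group differed by more than sampling noise (chi-square per degree of freedom 4.28 to 9.75).

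A table of gene names held 60064 of 60232 identifiers, and 41714 identifiers had a symbol. Positions, types and exonic lengths came from GENCODE release 29 (GRCh38). Promoter windows from RefSeq matched 67 of 87 members by symbol. Shared sequence is the share of a gene's 31-base stretches found in other genes' transcripts. The members and lists were chosen with earlier results of these data known, and no pattern here is independent support for those results. Named were E1 genes, the 5 largest called rises and falls per class and comparison at a mean log2 CPM of at least 1, members called in opposite directions by the compounds, untested members and the 2 largest called changes per list and comparison with DMSO. Other members were named to account for them, and NAE1, UBA1, UBE2Z and the intervals of uncalled members for their role or level, after values were seen. Some genes that this rule reaches are not reported here.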

Additional observations from a re-analysis of the deposited data

How the results depend on the processing

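Gene by gene, the alternatives were followed only for members that the rule above names, not for those named to account for them, such as USP48, USP19 and USP7. Of 61 called values of the members followed, 39 were called under all 17 alternatives and 22 were lost under at least 1. None was reversed, and 8 of 32 uncalled values were called under at least 1. The cause of the shifts was not tested. With library sizes alone, KB02 against DMSO had 2 members lower, no E1 or E2 gene lower, 15 E2 genes higher, 2 USP genes lower, and medians of 0.19 for E1, 0.19 for E2 and 0.20 for USP genes. With those sizes, KB05 against DMSO had no E2 gene lower, and KB05 against KB02 had no member higher, 38 members and 27 USP genes lower, and medians of -0.36 for E1, -0.0516 for E2 and -0.31 for USP genes. Upper-quartile factors gave, for KB02 against DMSO, 4 members lower, 0 E2 genes lower and medians of 0.11 (E2) and 0.12 (USP). For KB05 against DMSO they gave 13 members and 11 E2 genes higher, 1 E2 gene lower and an E2 median of 0.17, and for KB05 against KB02 an E2 median of 0.0417. DESeq2 gave 4 members and 0 E2 genes lower for KB02 against DMSO, 5 members and 1 USP gene higher, 1 E2 gene lower and an E2 median of 0.12 for KB05 against DMSO, and 2 members and 0 USP genes higher with an E2 median of 0.0332 for KB05 against KB02. Limma-voom gave 1 E2 gene lower for KB05 against DMSO, and the E2 median of KB05 against KB02 was 0.0343 with RLE factors and 0.0224 in the fit of those groups alone.

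Leaving out 1 library at a time gave, for KB02 against DMSO, 3 to 8 members lower, 0 to 1 E1, 0 to 3 E2 and 2 to 4 USP genes lower, and medians of 0.0555 to 0.3128 (E1, highest without DMSO replicate 2), 0.0344 to 0.1156 (E2) and 0.0636 to 0.1171 (USP). For KB05 against DMSO it gave 4 to 13 members higher and 13 to 21 lower, 1 to 2 E1 genes lower, 3 to 11 E2 genes higher and 0 to 2 lower, 1 to 2 USP genes higher and 11 to 17 lower. The medians there were -0.3115 to 0.0094 for E1 genes, above 0 without DMSO replicate 2 or KB05 replicate 3, and 0.11 to 0.16 for E2 genes. For KB05 against KB02 it gave 1 to 6 members, 1 to 5 E2 genes and 0 to 1 USP genes higher, and medians of -0.3255 to -0.0131 (E1, highest without KB05 replicate 3) and -0.0013 to 0.0676 (E2, lowest without KB02 replicate 1). Correlations of the deviations of same-numbered libraries from their group means ran from -0.042 to 0.083 over 9 pairs. The highest correlation between differently numbered libraries was 0.036. Such small values cannot settle whether same-numbered libraries were paired. With the replicate block, 9 members were called higher and 22 lower for KB05 against DMSO, 24 and 9 for KB02 against DMSO, and 4 and 28 for KB05 against KB02. Of the 61 calls followed gene by gene, only that of USP2 with KB02 was lost with the block (adjusted p = 0.0539). With 3 libraries per group, scarce members such as UBA7, USP6 and UBE2L6 could not be resolved.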
